A study of Mus musculus with 15 samples.

Results

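The Hippo pathway and the genes read out by its coactivators YAP and TAZ were followed in stretched podocytes, as 36 genes of the 55416 in the deposited gene count table. They were named by role: 2 coactivators, 4 TEAD factors, 7 genes of the kinase core, 2 upstream regulators, 3 angiomotins, 2 Vestigial-like cofactors and 16 YAP targets outside the CCN family. All were found by symbol, and 35 passed the filter on low counts in both stretch comparisons. The exception was Igfbp3, with 0 to 2 counts per library.

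The cells were SVI, a conditionally immortalised mouse line labelled as podocytes, the epithelial cells that wrap the glomerular capillaries. They had been differentiated and seeded on flexible silicone membranes. In experiment 1, 6 samples under low stretch (membrane deflection of 5 to 6 mm in the sample labels, 6 mm in the design text) stood beside 3 unstretched samples. In experiment 2, 3 samples under high stretch (7 to 8 mm, with 8 mm in the design text) stood beside 3 unstretched samples. Amplitude and experiment were the same split, so comparisons stayed within an experiment, and an effect of amplitude cannot be told apart from one of experiment. The labels do not say whether samples of a group were separate cultures, so p-values measure the spread between these samples, which may be technical.

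In the Hippo pathway, the kinases MST1 and MST2 (genes Stk4 and Stk3), with the scaffold SAV1, activate the kinases LATS1 and LATS2, with the adaptors MOB1A and MOB1B. LATS kinases phosphorylate YAP and TAZ (Yap1 and Wwtr1) and keep them out of the nucleus. Unphosphorylated YAP and TAZ enter the nucleus, bind TEAD factors and drive transcription. The pathway is known to respond to mechanical load and the actin cytoskeleton, and YAP is needed for podocyte survival. Much of this control acts on protein phosphorylation and localisation, which RNA counts do not measure.

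Total counts per sample were 279096099 to 294648217 in the unstretched samples of experiment 1, 261999648 to 396658285 under low stretch, 172211836 to 264475698 in the unstretched samples of experiment 2 and 178194405 to 297641156 under high stretch. Among podocyte markers, Nphs1 and Ptpro had group means under 1 CPM (counts scaled to library size), whereas Synpo, Actn4, Podxl and Cd2ap were well above it. Wt1, a podocyte transcription factor, averaged 5.01 CPM unstretched and 2.29 CPM under low stretch, then 2.81 and 0.548 CPM in experiment 2. The 5 endothelial markers summed to at most 0.259 CPM in any sample, and Umod, a tubule marker, was at or near 0. The sum of 5 tubule markers, nearly all of it Lrp2 and Aqp1, was 983 to 1355 CPM in unstretched and 488 to 799 CPM in stretched samples of experiment 1, and 962 to 1235 against 317 to 487 CPM in experiment 2. The sum of 5 mesangial and fibroblast markers was also lower under stretch without overlap, at 87 to 104 CPM against 57.7 to 80.2 CPM in experiment 1 and 126 to 159 CPM against 105 to 125 CPM in experiment 2. Most of it was Pdgfrb, with means of 86.4 and 59.7 CPM in experiment 1 and 139 and 105 CPM in experiment 2. Col1a1, under 1 CPM, was higher under stretch in both, and Gata3 was near level in experiment 1 and higher in experiment 2. In experiment 2 alone, the 5 immune markers summed to 0.738 to 1.23 CPM unstretched and 1.64 to 2.12 CPM stretched, and the 3 parietal epithelial markers to 495 to 597 CPM and 439 to 494 CPM. Nearly all of the immune sum was Cd68, since Ptprc, Adgre1, Itgam and Cd3e had means of 0.0119 CPM or less in that experiment. The part of these markers in the results was not tested; in bulk RNA, fewer cells of a type and less RNA per cell cannot be told apart. One library stood apart: unstretched replicate 3 of experiment 2 lay at 31.7 on the first principal component, with its fellow replicates at 122 and 163. The codes in the sample descriptions follow on from each other in plate order. They were cut here into 6 runs of successive positions, each starting with its 1 unstretched sample. Run 3 crosses from one plate column to the next. The labels name no such runs and do not tie them to a culture or a batch. In experiment 1, samples of the same run deviated together from their group means (mean correlation across genes 0.438, from 0.328 to 0.57 over 6 pairs, against a mean of -0.218 for different runs), so differences within runs are given beside the pooled ones. Because values were centred on group means, a positive mean for same-run pairs goes with a negative one for different runs, so the -0.218 is not separate evidence. Experiment 2 had 1 pair a run, and these correlated less evenly (mean 0.175, from -0.163 to 0.449). Its pairs of different runs spread from -0.539 to 0.44.

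In the fits without a run term few of these genes passed, and those that did went both ways. Under low stretch 4 of 35 passed edgeR's quasi-likelihood test at a Benjamini-Hochberg adjusted p under 0.05. Myof rose, and Ptpn14, Vgll4 and Wwc1 fell. The 3 that fell restrain YAP, but Ptpn14 is also a YAP target, so of the targets 1 rose and 1 fell. The 4 that passed are 11.4% of the members, beside 5.45% of all 21672 genes tested (1.85% higher and 3.6% lower). Under high stretch 1 of 35 passed, the target Foxf2, which rose. That is 2.86%, beside 3.47% of 18524 genes (1.31% higher and 2.16% lower), so the share of members was near the background. None passed as lower in this edgeR fit, in which 11 members had an unadjusted p under 0.05 in either direction. Other fits of the high-stretch comparison did call members lower: DESeq2 3 (Gadd45a, Nuak2 and Wwc1), edgeR with no filter on low counts 1 (Gadd45a) and edgeR with all 15 samples in one fit 5 (Amotl2, Gadd45a, Nuak2, Vgll4 and Wwc1). These fits called 5.9%, 3.21% and 6.76% of all genes in either direction.

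When run was a term in the low-stretch fit, 24 of 35 members passed, 11 of them higher and 13 lower. This was 68.6% of the members against 28.2% of all genes (13.7% higher and 14.5% lower). The members are abundant genes, with a median of 111 CPM against 4.62 CPM for all genes tested. Among genes with a mean of at least 10 CPM, 65.6% of 32 members and 36.3% of 9516 genes passed with the run term, against 12.5% and 6.16% without it. At that level 0% of 32 members and 2.34% of 9113 genes passed under high stretch without the term. Between the unstretched samples of the 2 experiments, 67.7% of 31 members and 74.1% of 9582 genes did. The difference had the same sign in all 3 runs of experiment 1 for 25 members (71.4%, beside 61.1% of all genes). With run as a term in the high-stretch fit 5 members passed, with Ankrd1, Dock5 and Foxf2 higher and Gadd45a and Nt5e lower. This was 14.3% of the members against 8.35% of all genes (3.31% higher and 5.03% lower). With 1 pair a run, that fit has few residual degrees of freedom and takes most of its variance from other genes. Its standard errors were much alike, for example 0.231 for Nf2 and 0.235 for Tead1, against 0.153 and 0.378 without the term. The high-stretch p-values with the run term given below share this limit.

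The CPM values of the compared groups did not overlap for 12 members under low stretch (34.3%, against 15.9% of all genes) and for 11 under high stretch (31.4%, against 20.9%). They did so in both experiments and in the same direction for Nuak2, Vgll4 and Wwc1, all lower under stretch. These 3 are 8.57% of the members, close to the 7.31% of all genes. In TPM, a level scaled to transcript length, some members that were apart in CPM did overlap, as given below. The median log2 fold change of the 35 members was -0.05 under low and 0.01 under high stretch, beside 0.01 and -0.02 for all genes tested.

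**Figure D1:**
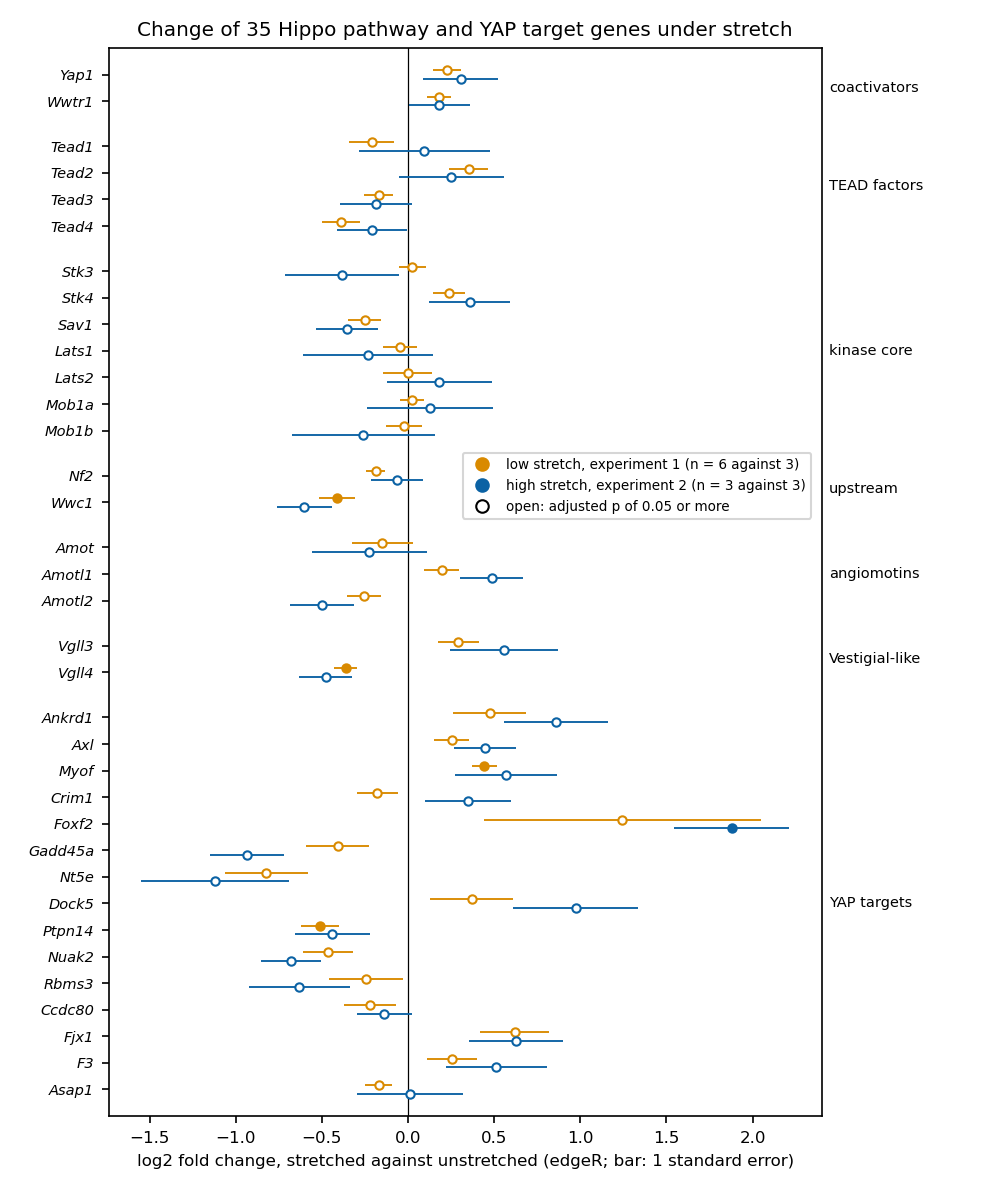
Log2 fold changes of the 35 members tested (x axis) by role (y axis), for low stretch (n = 6 against 3) and high stretch (n = 3 against 3), with 1 standard error from edgeR; filled points have an adjusted p under 0.05. The 4 filled low-stretch points are Wwc1, Vgll4, Myof and Ptpn14, the 1 filled high-stretch point is Foxf2, and most error bars are wider under high stretch.

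Promoter windows were available for 28 of the 36 genes, as the 250 bases before each RefSeq gene start (build GRCm38.p6). They were searched on both strands for GGAATG, the core of the site that TEAD factors bind. At least 1 match was found for 12 of 28 members (42.9%), whereas 14.4% of 27025 genes with windows of that length had one. The AP-1 site TGANTCA, also on both strands, was found for 1 of 28 members (3.57%), F3, beside 7.82% of genes. The windows of 4 genes with a match are printed as examples. Ankrd1, with 2 matches, was higher under stretch in every run, while Amotl2, Ptpn14 and Vgll4, with 1 match each, were lower in every run. Of these, only Ptpn14 and Vgll4 passed a main fit. Myof, Foxf2 and Wwc1 also passed one, but their windows held no match and are not printed. Capitals mark GGAATG or its reverse complement.
Ankrd1, chr19:36119845-36120094, minus strand: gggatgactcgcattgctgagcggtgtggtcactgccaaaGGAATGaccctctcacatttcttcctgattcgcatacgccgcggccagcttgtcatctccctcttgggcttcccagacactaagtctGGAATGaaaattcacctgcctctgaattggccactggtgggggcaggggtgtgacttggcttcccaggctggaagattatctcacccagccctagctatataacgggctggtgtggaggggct
Amotl2, chr9:102717554-102717803, plus strand: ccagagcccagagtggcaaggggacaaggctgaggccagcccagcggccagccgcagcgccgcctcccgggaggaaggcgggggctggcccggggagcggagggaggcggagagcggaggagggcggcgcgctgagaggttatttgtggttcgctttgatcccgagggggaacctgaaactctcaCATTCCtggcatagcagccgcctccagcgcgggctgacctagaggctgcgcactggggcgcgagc
Ptpn14, chr1:189728018-189728267, plus strand: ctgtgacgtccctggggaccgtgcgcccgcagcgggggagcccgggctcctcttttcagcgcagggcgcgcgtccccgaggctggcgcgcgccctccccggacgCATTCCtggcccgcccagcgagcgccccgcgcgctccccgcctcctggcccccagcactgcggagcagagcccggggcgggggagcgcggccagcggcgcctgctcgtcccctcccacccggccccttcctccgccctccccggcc
Vgll4, chr6:114969204-114969453, minus strand: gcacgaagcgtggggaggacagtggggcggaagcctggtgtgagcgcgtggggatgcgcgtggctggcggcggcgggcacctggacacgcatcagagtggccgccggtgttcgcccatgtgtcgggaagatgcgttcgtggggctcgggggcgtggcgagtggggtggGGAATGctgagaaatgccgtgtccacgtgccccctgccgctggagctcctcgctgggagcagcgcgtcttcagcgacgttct

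The matches lay 210 and 123 bases before the start of Ankrd1, 65 before Amotl2, 146 before Ptpn14 and 82 before Vgll4. Genes with a match therefore include both higher and lower members. Axl, Crim1, Mob1a, Sav1, Tead3, Vgll3, Wwtr1 and Yap1 also had 1 or more. The windows of Myof, Foxf2 and Wwc1, which passed a test, held none of these letters, nor did those of Gadd45a and Nt5e. A match is a description of the letters and not evidence of binding.

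The 2 coactivators were both slightly higher under stretch, and neither passed the main test. Yap1 stood at 143, 141 and 149 CPM in the 3 unstretched samples of experiment 1 and at 158 to 195 CPM (median 169.8) in the 6 low-stretch samples, with no overlap. In experiment 2 it was 107, 98.8 and 143 CPM without and 171, 114 and 148 CPM with high stretch. The latter groups overlapped, because unstretched replicate 3 was high and high-stretch replicate 2 low. The log2 fold changes were 0.23 (SE 0.08, adjusted p = 0.121, edgeR) and 0.31 (SE 0.22, adjusted p = 0.655, edgeR). Within the runs of experiment 1 the log2 differences were 0.38, 0.25 and 0.11, and with run as a term the adjusted p was 0.0286 (edgeR). In TPM, a level scaled to transcript length, the groups of experiment 1 did overlap, at 73.4 to 77.3 unstretched and 70.3 to 93.0 under low stretch.

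Wwtr1, which encodes TAZ, followed the same course. Its unstretched values in experiment 1 were 132.6, 124 and 136 CPM, below all low-stretch values (140.3 to 161, median 151). Experiment 2 gave 84.3, 82.1 and 103 CPM unstretched and 117, 89.2 and 100.0 CPM stretched, and these overlapped. The log2 fold change was 0.18 under low stretch (SE 0.07, adjusted p = 0.143, edgeR; 0.0395 with the run term) and 0.18 under high stretch (SE 0.18, adjusted p = 0.789). The runs of experiment 2 gave 0.47, 0.12 and -0.04. In TPM the groups of experiment 1 overlapped here too, at 51.7 to 57.0 unstretched and 49.6 to 62.1 under low stretch.

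TEAD factors, the DNA-binding partners of YAP and TAZ, did not move as one. Tead2 was the 1 of 4 that was higher under low stretch, whereas Tead1, Tead3 and Tead4 were lower, and none passed the main test in either experiment. Tead2 read 73.8, 87.8 and 69.3 CPM unstretched against 90.3 to 119.6 CPM (median 95.7) under low stretch, with no overlap and log2 differences of 0.38, 0.38 and 0.39 within the 3 runs. Its log2 fold change was 0.35 (SE 0.11, adjusted p = 0.094, edgeR), and with the run term its adjusted p was 0.000875, among the smallest of the members. In experiment 2 the values were 197, 215 and 105 CPM unstretched and 154, 250.1 and 214 CPM stretched, with run differences of -0.35, 0.22 and 1.03 that did not share a sign. In TPM the Tead2 groups of experiment 1 did overlap, at 88.9 to 113.9 unstretched and 102.4 to 124.1 under low stretch.

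Tead4, the least abundant TEAD transcript, was 13.5, 14.6 and 16.9 CPM in unstretched and 9.9 to 13.2 CPM (median 11.6) in low-stretch samples, again without overlap. Its log2 fold change was -0.39 (SE 0.11, adjusted p = 0.0653; 0.0116 with the run term, edgeR). Under high stretch it read 18.5, 19 and 19.1 CPM against 24.4, 23.9 and 17 CPM unstretched, and the groups overlapped. Here the 3 stretched samples were close together and the lowest unstretched value, replicate 3, lay below them.

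Tead3 differed less. It was 85.1, 74.8 and 81.1 CPM unstretched and 64.6 to 82.8 CPM (median 73) under low stretch, and 144, 152 and 105 CPM unstretched against 101, 132.9 and 119.7 CPM under high stretch. In CPM the groups overlapped in both experiments. In TPM those of experiment 2 did not, at 68.1 to 70.7 unstretched and 55.3 to 59.7 under high stretch. Only the low-stretch fit with the run term gave an adjusted p under 0.05 (0.0292, edgeR, log2 fold change -0.17). Tead1 passed nowhere: its mean was 227 ± 13.7 CPM unstretched and 199.8 ± 34 CPM under low stretch (SD, n = 3 and 6), then 84.9 ± 41.6 CPM unstretched and 90.9 ± 30.3 CPM under high stretch (SD, n = 3 each).

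The kinase core as a whole showed no common direction. None of its 7 genes passed the main test in either experiment, with 3 above and 4 below 0 in each; Lats2, at 0 to 2 decimals under low stretch, turned from below to above 0 with RLE size factors. Their log2 fold changes ran from -0.25 to 0.24 under low stretch and from -0.38 to 0.36 under high stretch. Stk4, which encodes MST1, and Sav1, its scaffold, were the 2 that passed with the run term, in opposite directions.

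Stk4 was 60.5, 67.6 and 63.8 CPM in unstretched and 69.3 to 88.3 CPM (median 75.5) in low-stretch samples, which did not overlap. In TPM it did overlap, at 24.3 to 26.3 unstretched and 22.9 to 31.8 under low stretch. In experiment 2 it was 40.5, 40.5 and 52.9 CPM unstretched and 74.7, 43.6 and 53.6 CPM stretched, where replicate 1 alone was far above the rest. Its log2 fold change was 0.24 under low stretch (SE 0.09, adjusted p = 0.155; 0.0481 with the run term, edgeR) and 0.36 under high stretch (SE 0.24, adjusted p = 0.614). Sav1 went the other way, from 72.7, 68.3 and 83.4 CPM to 56.6 to 71.5 CPM (median 65) under low stretch, with overlap. Under high stretch all 3 values, 47.7, 39.1 and 42.1 CPM, lay below the lowest unstretched one, if barely so for replicate 1 (52.9, 47.7 and 64 CPM). In TPM these groups overlapped, at 32.9 to 66.6 unstretched and 27.0 to 41.4 under high stretch. Sav1's log2 fold changes were -0.25 (SE 0.10, adjusted p = 0.146; 0.00762 with the run term, edgeR) and -0.36 (SE 0.18, adjusted p = 0.439). A neighbouring gene, Atl1, overlaps 25.4% of Sav1's exon bases on the other strand in the GENCODE annotation, and the strand setting of the counting is not given in the sources used here, so part of the Sav1 counts may belong to Atl1.

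The other 5 core genes barely differed under low stretch. Lats1 had a mean of 112 ± 5.52 CPM unstretched and 110.0 ± 12.7 CPM stretched (SD, n = 3 and 6), with an edgeR log2 interval of -0.26 to 0.17 (95%). Mob1a had means of 198 ± 5.71 and 205 ± 13.6 CPM and an interval of -0.13 to 0.18. For Stk3, which encodes MST2, the means were 39.6 ± 2.53 and 41 ± 3.09 CPM (interval -0.14 to 0.20). The intervals were several times wider under high stretch, for example -1.11 to 0.64 for Lats1 and -0.71 to 0.97 for Mob1a. Mob1b had means of 56.7 ± 4.82 and 56.8 ± 6.99 CPM in experiment 1 and of 11.4 ± 6.86 and 9.56 ± 2.19 CPM in experiment 2. Lats2 had means of 43.4 ± 4.71 and 44.2 ± 7.87 CPM, then 25.2 ± 9.15 and 28.6 ± 8.05 CPM; 39.9% of its 100-base runs also occur in the read-through transcript Gm49361, so its counts are uncertain. In experiment 2 the means were 33.1 ± 18.2 and 28.2 ± 7.08 CPM for Lats1, 63.5 ± 29.1 and 69.3 ± 25.5 CPM for Mob1a, and 11.9 ± 5.5 and 9.15 ± 1.26 CPM for Stk3.

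Wwc1, known as KIBRA and an activator of LATS upstream of the core, fell under low stretch. It was 485, 524 and 541 CPM (ENSMUSG00000018849 in the table) in the unstretched samples and 324 to 466 CPM (median 397) in the low-stretch samples. In experiment 2 it was 744, 636 and 718 CPM unstretched and 455, 456 and 475 CPM under high stretch, so the groups were apart in both experiments. The log2 fold change was -0.41 under low stretch (SE 0.10, adjusted p = 0.0472, edgeR) and -0.60 under high stretch (SE 0.16, adjusted p = 0.097, edgeR). All 6 runs had the same sign, with log2 differences of -0.40, -0.49 and -0.30 in experiment 1 and -0.71, -0.48 and -0.60 in experiment 2. The low-stretch call was fragile, since it was kept in 1 of the 9 fits that left out 1 sample, that without low-stretch replicate 5.

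Nf2, which encodes Merlin, an upstream activator of LATS at the cell cortex, was lower by a small and even amount under low stretch. The unstretched values were 103, 104 and 107 CPM, and the stretched ones ran from 90.6 to 95.9 CPM (median 93.4), with no overlap. Its log2 fold change was -0.19 (SE 0.05, adjusted p = 0.0688; 0.0104 with the run term, edgeR). Under high stretch it read 136, 121 and 142 CPM against 135, 138 and 142 CPM, which overlapped (log2 fold change -0.06, SE 0.15).

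Angiomotins bind YAP and hold it at junctions and actin, and AMOTL2 is itself often used as a YAP target. Amotl2 was the most abundant of all members in unstretched cells, at 659 ± 34.4 TPM (a level scaled to transcript length; SD, n = 3) in experiment 1. Its counts were lower under stretch: 1038, 991 and 1104 CPM unstretched against 779 to 1028 CPM (median 870.1) under low stretch, and 1253, 1171 and 1596 CPM unstretched against 928, 929 and 994 CPM under high stretch. Groups overlapped in experiment 1 and did not in experiment 2. The log2 fold changes, -0.25 (SE 0.10, adjusted p = 0.156; 0.0117 with the run term, edgeR) and -0.50 (SE 0.18, adjusted p = 0.243), missed the threshold in the main fits.

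Its relative Amotl1 was on the other side. The 3 unstretched values of experiment 2 were 113, 117 and 140.0 CPM and the stretched ones 179, 142 and 198 CPM, which did not overlap (log2 fold change 0.49, SE 0.18, adjusted p = 0.257, edgeR). In TPM these groups did overlap, at 16.0 to 26.1 unstretched and 18.3 to 27.2 under high stretch. Under low stretch the mean was 136 ± 17.4 CPM against 117 ± 1.4 CPM unstretched (SD, n = 6 and 3), and it did not pass with the run term either (adjusted p = 0.0844). Amot varied most within groups, with means of 759 ± 48.5 CPM unstretched and 698 ± 162 CPM under low stretch, then 307 ± 149.7 and 263 ± 56.3 CPM in experiment 2. Low-stretch samples of Amot ran from 459 to 858 CPM, and the groups overlapped in both experiments.

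The Vestigial-like proteins bind TEAD factors at the surface that YAP uses, and VGLL4 competes with YAP there. Vgll4 (ENSMUSG00000030315) fell under low stretch, from 84.6, 77.7 and 84.6 CPM to values of 60.3 to 69.3 CPM (median 66), with a log2 fold change of -0.36 (SE 0.07, 0.778-fold, adjusted p = 0.0128, edgeR). Under high stretch it was 84.6, 94.8 and 92.1 CPM against 117, 128 and 132 CPM, likewise without overlap, at a log2 fold change of -0.48 (SE 0.16, adjusted p = 0.18, edgeR). All 6 runs were negative, at -0.30, -0.27 and -0.44 and then -0.46, -0.43 and -0.52.

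Vgll3 was higher under stretch. It was 142, 152 and 137 CPM unstretched and 145 to 212 CPM (median 180.0) under low stretch, and 48, 39.9 and 85.8 CPM unstretched against 103, 62.5 and 90 CPM under high stretch, with overlap in both. Vgll3 had log2 fold changes of 0.29 (SE 0.12, adjusted p = 0.175; 0.0356 with the run term, edgeR) and 0.56 (SE 0.31, adjusted p = 0.51). All 6 runs were positive. The 2 Vestigial-like genes thus stood on opposite sides of 0 in both experiments.

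**Figure D2:**
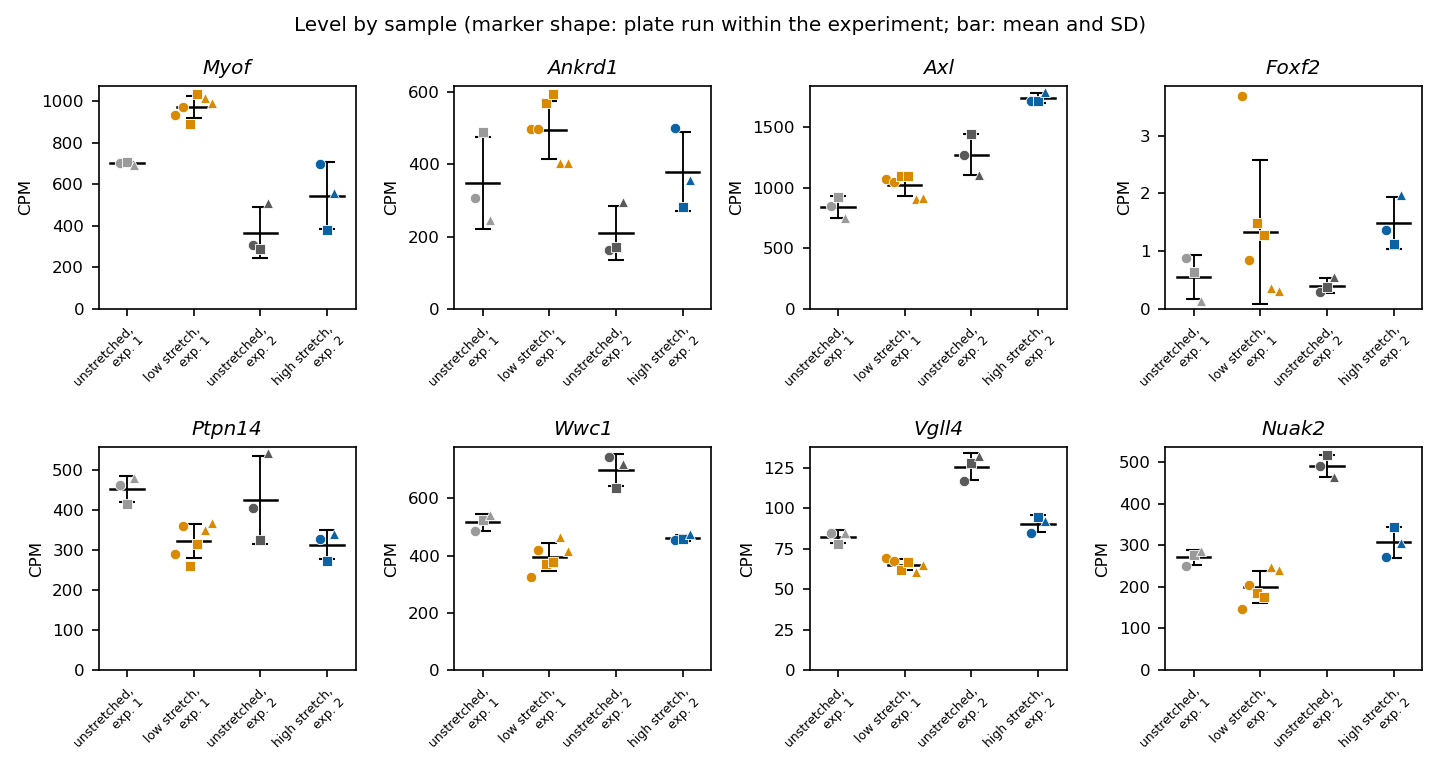
Level in CPM (y axis, from 0) of 8 members in each sample of the 4 groups (x axis), with marker shapes for the 3 runs of each experiment and bars for the mean and SD. Samples of Wwc1, Vgll4 and Nuak2 do not overlap between stretched and unstretched groups in either experiment, and the low-stretch sample of Foxf2 at 3.68 CPM lies far above the other 5.

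Of the 16 YAP targets, 15 could be tested, and they split. Under low stretch 7 had a positive and 8 a negative log2 fold change (median -0.17), and under high stretch 9 were positive and 6 negative (median 0.35), beside medians near 0 for all genes. With the run term 6 passed as higher (Ankrd1, Axl, Myof, Foxf2, Dock5, Fjx1) and 6 as lower (Gadd45a, Nt5e, Ptpn14, Nuak2, Rbms3, Asap1) under low stretch, which is 80% of the 15 beside 28.2% of all genes. Crim1, Ccdc80 and F3 did not pass there.

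Myof encodes myoferlin, a membrane repair protein, and was the 1 target that rose in the main low-stretch fit. The 3 unstretched samples (ENSMUSG00000048612) were tight at 704, 709 and 695 CPM, and all 6 low-stretch samples were above them, at 893 to 1035 CPM (median 983). The rise was 1.36-fold (log2 0.44, SE 0.07, adjusted p = 0.00955, edgeR), and the runs gave 0.44, 0.44 and 0.53. Under high stretch it read 700.0, 377 and 559.6 CPM against 307, 285 and 508 CPM, with overlap from unstretched replicate 3. The log2 fold change there was 0.57 (SE 0.30, adjusted p = 0.466, edgeR), with a larger error than under low stretch.

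Ankrd1, a cardiac ankyrin repeat protein and one of the standard YAP readouts, was higher in all 6 runs without passing either main fit. Unstretched samples of experiment 1 spread from 307, 491 and 245 CPM, and low-stretch samples ran from 403 to 595 CPM (median 499). Unstretched replicate 2 lay as high as the stretched samples. Its own run, however, held the 2 highest stretched samples, and the log2 differences within runs were 0.70, 0.24 and 0.72. The log2 fold change was 0.47 (SE 0.21, adjusted p = 0.207, edgeR) without the run term and 0.52 (SE 0.09, adjusted p = 0.00225) with it. Under high stretch the values were 500.4, 282 and 358 CPM against 163, 169.8 and 295 CPM unstretched, a log2 fold change of 0.86 (SE 0.30, adjusted p = 0.216; 0.0204 with the run term, edgeR). Unstretched replicate 3 again overlapped the lowest stretched sample.

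Axl, a receptor tyrosine kinase, was 853, 922 and 748 CPM unstretched and 905 to 1099 CPM (median 1056) under low stretch, which overlapped. In experiment 2 it was 1274, 1441 and 1103 CPM unstretched and 1721, 1718 and 1789 CPM stretched, which did not. The log2 fold changes of 0.25 (SE 0.10, adjusted p = 0.168, edgeR) and 0.45 (SE 0.18, adjusted p = 0.303, edgeR) both missed the threshold. The 3 runs of experiment 1 were nearly equal, at 0.31, 0.25 and 0.28, and the adjusted p with the run term was 0.00766.

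Foxf2, a forkhead transcription factor at a level near 1 CPM, rose under high stretch. It was 0.284, 0.367 and 0.543 CPM in unstretched and 1.37, 1.11 and 1.97 CPM in high-stretch samples (ENSMUSG00000038402), a 3.68-fold rise (log2 1.88, SE 0.33, adjusted p = 0.025, edgeR). The run differences were 2.24, 1.58 and 1.85. These levels rest on at least 42 counts per library. The call was kept in 3 of 6 fits that left out 1 sample and was lost without high-stretch replicate 1 or 3 or unstretched replicate 1, and also with all 15 samples in one fit (log2 fold change 1.67 to 2.20 over all alternatives). Under low stretch it read 0.879, 0.637 and 0.132 CPM unstretched and 0.309 to 3.68 CPM (median 1.06), with wide overlap and a log2 fold change of 1.25 (SE 0.80, adjusted p = 0.376; 0.0343 with the run term, edgeR).

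Dock5, a guanine nucleotide exchange factor for Rac, and Fjx1, a secreted four-jointed homologue, were higher in all 6 runs. Dock5 read 9.65, 15.7 and 10.2 CPM unstretched against 10.9 to 22.9 CPM (median 15) under low stretch, and 4.47, 5.61 and 10.1 CPM unstretched against 16, 8.46 and 15.3 CPM under high stretch. Groups overlapped in both. Its log2 fold changes were 0.37 (SE 0.24, adjusted p = 0.38; 0.0229 with the run term, edgeR) and 0.97 (SE 0.36, adjusted p = 0.253; 0.0106 with the run term). Fjx1 read 4.24, 5.14 and 3.27 CPM unstretched and 4.71 to 8.07 CPM (median 6.86) under low stretch. Those groups overlapped. In experiment 2 it was 10.5, 13.2 and 7.55 CPM unstretched and 13.3, 19.7 and 15.4 CPM under high stretch, just without overlap. For Fjx1 the log2 fold changes were close to each other, 0.62 (SE 0.20, adjusted p = 0.0965; 0.00409 with the run term, edgeR) and 0.63 (SE 0.27, adjusted p = 0.344).

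F3, tissue factor, the starter of the extrinsic coagulation pathway, averaged 87.7 ± 23.5 CPM unstretched and 107 ± 7.27 CPM under low stretch, then 61.5 ± 24 and 87.8 ± 20.7 CPM in experiment 2 (SD, n = 3, 6, 3 and 3). It was positive in 2 of 3 runs of each experiment and passed no main fit (adjusted p = 0.318 and 0.526, edgeR).

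Ptpn14, a phosphatase that binds YAP and restrains it and is also a YAP target, fell under low stretch. It was 464, 416 and 479.7 CPM (ENSMUSG00000026604) unstretched and 261 to 367 CPM (median 333) stretched, with no overlap. This is 0.702 of the unstretched level (log2 -0.51, SE 0.11, adjusted p = 0.0252, edgeR), with -0.52, -0.54 and -0.42 in the 3 runs. Under high stretch the values were 329, 274 and 339.9 CPM against 406, 325 and 543 CPM unstretched, which overlapped, and the log2 fold change was -0.44 (SE 0.22, adjusted p = 0.429, edgeR).

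Nuak2, an AMPK-related kinase, was lower in all 6 runs with no overlap in either experiment. It was 250.3, 276 and 286 CPM unstretched against 147 to 248 CPM (median 195) under low stretch, and 491, 516 and 464 CPM unstretched against 271, 344 and 305 CPM under high stretch. The log2 fold changes of -0.46 (SE 0.15, adjusted p = 0.0913; 0.00434 with the run term, edgeR) and -0.68 (SE 0.18, adjusted p = 0.0852) stayed short of the threshold in the main fits. Low-stretch replicates 5 and 6, both of run 3, were the 2 nearest to the unstretched samples.

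Gadd45a, a growth arrest and DNA damage gene, was lower to a larger extent under high stretch. The values were 41.9, 42.6 and 62 CPM unstretched and 28.4, 25.6 and 22.8 CPM stretched, without overlap (log2 fold change -0.93, SE 0.21, adjusted p = 0.0586; 0.00691 with the run term, edgeR). In experiment 1 it was 52.9, 40.6 and 56.6 CPM unstretched and 29.5 to 50.6 CPM (median 33.7) stretched, with overlap (log2 fold change -0.41, SE 0.18, adjusted p = 0.207; 0.00487 with the run term). An antisense gene, E230016M11Rik, overlaps 19.1% of its exon bases.

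Nt5e, the ectonucleotidase CD73, was scarce and lower in all 6 runs. It read 1.62, 2.17 and 2.46 CPM unstretched and 0.744 to 1.48 CPM (median 1.35) under low stretch, without overlap, and 0.6248, 0.561 and 1.49 CPM unstretched against 0.335, 0.34 and 0.563 CPM under high stretch, where 1 value overlapped. Log2 fold changes of Nt5e were -0.82 (SE 0.24, adjusted p = 0.0727; 0.000400 with the run term, edgeR) and -1.12 (SE 0.43, adjusted p = 0.264; 0.0292 with the run term). The largest negative fold changes among the members in both experiments were those of Nt5e, at 49 to 781 counts per library.

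Rbms3, an RNA-binding protein gene, and Asap1, a GTPase-activating protein for Arf, passed only with the run term. Rbms3 was 71.2, 55.1 and 95.7 CPM unstretched and 42.6 to 87.4 CPM (median 64.8) under low stretch, and 22.6, 14 and 30.9 CPM unstretched against 15.6, 11.7 and 16.4 CPM under high stretch. All 6 run differences were negative although the pooled groups overlapped (log2 fold change -0.24, adjusted p = 0.0427 with the run term, edgeR). Asap1 was 231, 212 and 214 CPM unstretched and 173 to 218 CPM (median 199) under low stretch, with a log2 fold change of -0.17 and an adjusted p of 0.0365 with the run term. Under high stretch Asap1 read 149, 92.4 and 140.2 CPM against 111, 82.7 and 183 CPM, a log2 fold change of 0.01 (SE 0.31).

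Ccdc80, an extracellular matrix protein, averaged 653 ± 76.5 CPM unstretched and 572 ± 98.7 CPM under low stretch, then 855 ± 45.2 and 781 ± 33.3 CPM in experiment 2. Crim1, a transmembrane protein that binds bone morphogenetic proteins, averaged 407 ± 47.9 and 367 ± 49.5 CPM, then 206 ± 52.9 and 263 ± 62 CPM (SD, n = 3, 6, 3 and 3). Neither passed, and the log2 fold changes of Crim1 had different signs in the 2 experiments (-0.18 and 0.35). Igfbp3, an insulin-like growth factor binding protein and a YAP target in other cells, had 0 to 2 counts in each library, of total counts of 172211836 or more, so a change could not be measured.

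**Figure D3:**
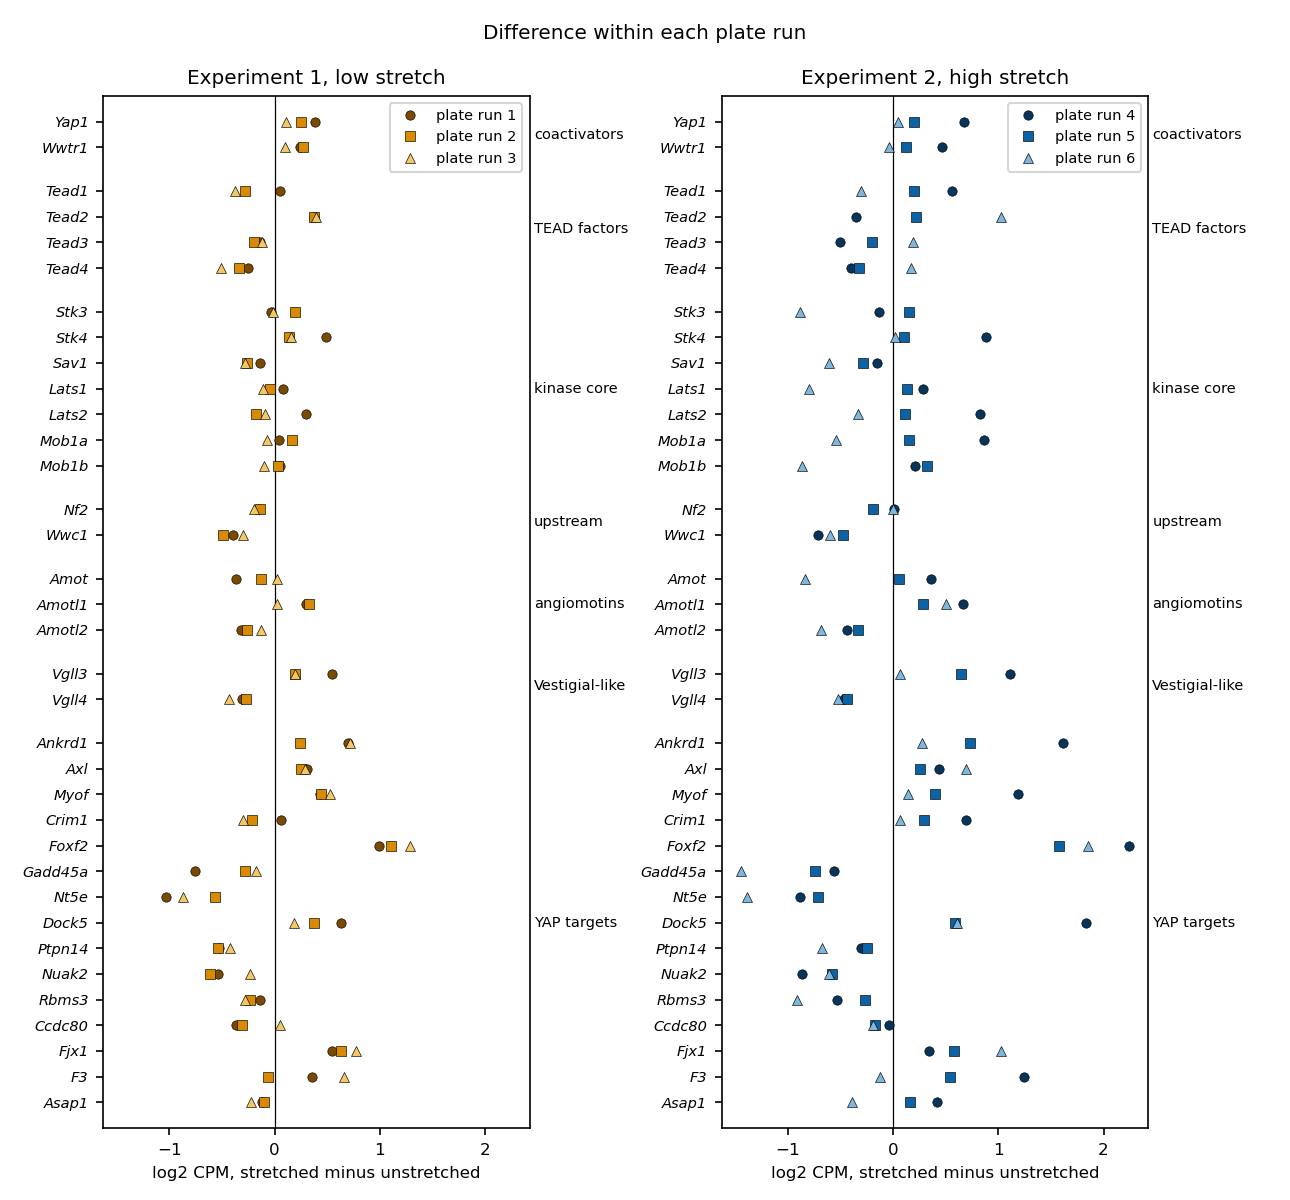
Difference in log2 CPM, stretched minus unstretched, within each plate run (x axis) for the 35 members by role (y axis), with runs 1 to 3 of low stretch on the left and runs 4 to 6 of high stretch on the right. Points of 25 members lie on one side of 0 in all 3 runs of experiment 1, and the spread between runs is wider in experiment 2 for most members.

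Most members differed in the same direction in the 2 experiments, which share no samples. The log2 fold change had the same sign for 30 of 35 members (85.7%), 14 of them higher in both, beside 76.4% of 18403 genes tested in both. The exceptions were Tead1, Stk3, Lats2, Crim1 and Asap1, of which Lats2 changed sides with RLE size factors. Tested directly in one fit over all 15 samples, the difference between the high-stretch and low-stretch effects passed for 0 of 35 members, and 0% of 22015 genes passed. None of the 35 had an unadjusted p under 0.05, and DESeq2 called none either. The smallest p among them was 0.0627 for Crim1, with a difference of 0.50 on the log2 scale (95% interval -0.03 to 1.03), followed by Gadd45a, with -0.55 (-1.16 to 0.07). A p that misses the threshold does not show that the effects were alike. Amplitude and experiment cannot be told apart in this contrast.

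The stretch calls depended on single libraries. Without unstretched replicate 1 or unstretched replicate 3 of experiment 1, no member passed under low stretch, and without other single samples 2 to 6 did. In those 9 fits Myof passed 7 times, Vgll4 7 times and Ptpn14 6 times, and the log2 fold change over all alternatives kept its sign (0.38 to 0.46 for Myof, -0.39 to -0.34 for Vgll4, -0.62 to -0.46 for Ptpn14). Under high stretch, leaving out unstretched replicate 3, the library that stood apart, raised the number of members that passed from 1 to 8 (22.9%, beside 7.77% of all genes): Ankrd1, Dock5, F3, Foxf2, Myof and Vgll3 higher, Gadd45a and Nuak2 lower. Without high-stretch replicate 1, high-stretch replicate 3 or unstretched replicate 1 none passed.

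More members passed between the unstretched samples of the 2 experiments than in either stretch comparison without a run term; with that term 24 passed under low stretch. Between unstretched samples, 23 of 35 members passed (65.7%), 7 higher and 16 lower in experiment 2, while 62.5% of all 20707 genes passed (29.7% higher and 32.7% lower), so the share is that of genes at large. All 7 kinase core genes were lower in experiment 2, with a median log2 difference of -1.67, beside -0.07 for all genes. Mob1b showed the largest difference, -2.34 (SE 0.38, adjusted p = 0.00533, edgeR), followed by Lats1 with -1.78 and Stk3 with -1.76. Among the TEAD factors Tead2 was higher (log2 difference 1.16, SE 0.29) and Tead1 lower (-1.45, SE 0.31) in experiment 2. Without unstretched replicate 3 of experiment 2, 30 members passed, and without any other single sample 14 to 16 did.

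Levels per transcript length put these genes in order. In unstretched cells of experiment 1, the mean TPM was highest for Amotl2, at 659 ± 34.4 (SD, n = 3), followed by Axl at 521 ± 66, Ccdc80 at 375 ± 44.6 and Ankrd1 at 362 ± 132. Ccdc80 and Ankrd1 did not differ beyond their spread. In experiment 2 the first 3 were the same genes, at 587 ± 209, 530.0 ± 37.3 and 339 ± 78.2 TPM, and Amotl2 and Axl overlapped. Yap1 was above Wwtr1 in both, at 75.5 ± 1.95 against 55 ± 2.92 TPM in experiment 1 and 46.2 ± 15.5 against 25.8 ± 8.71 TPM in experiment 2. The TEAD order was Tead2 (98.2 ± 13.6 TPM), Tead3 (63.1 ± 4.48), Tead1 (43.3 ± 3.15) and Tead4 (10.4 ± 1.05) in experiment 1. In experiment 2 Tead1 and Tead4 were level, at 10.6 ± 7.98 and 10.5 ± 0.693 TPM. Dock5, Fjx1, Foxf2 and Nt5e were below 5 TPM in unstretched cells of both.

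**Figure D4:**
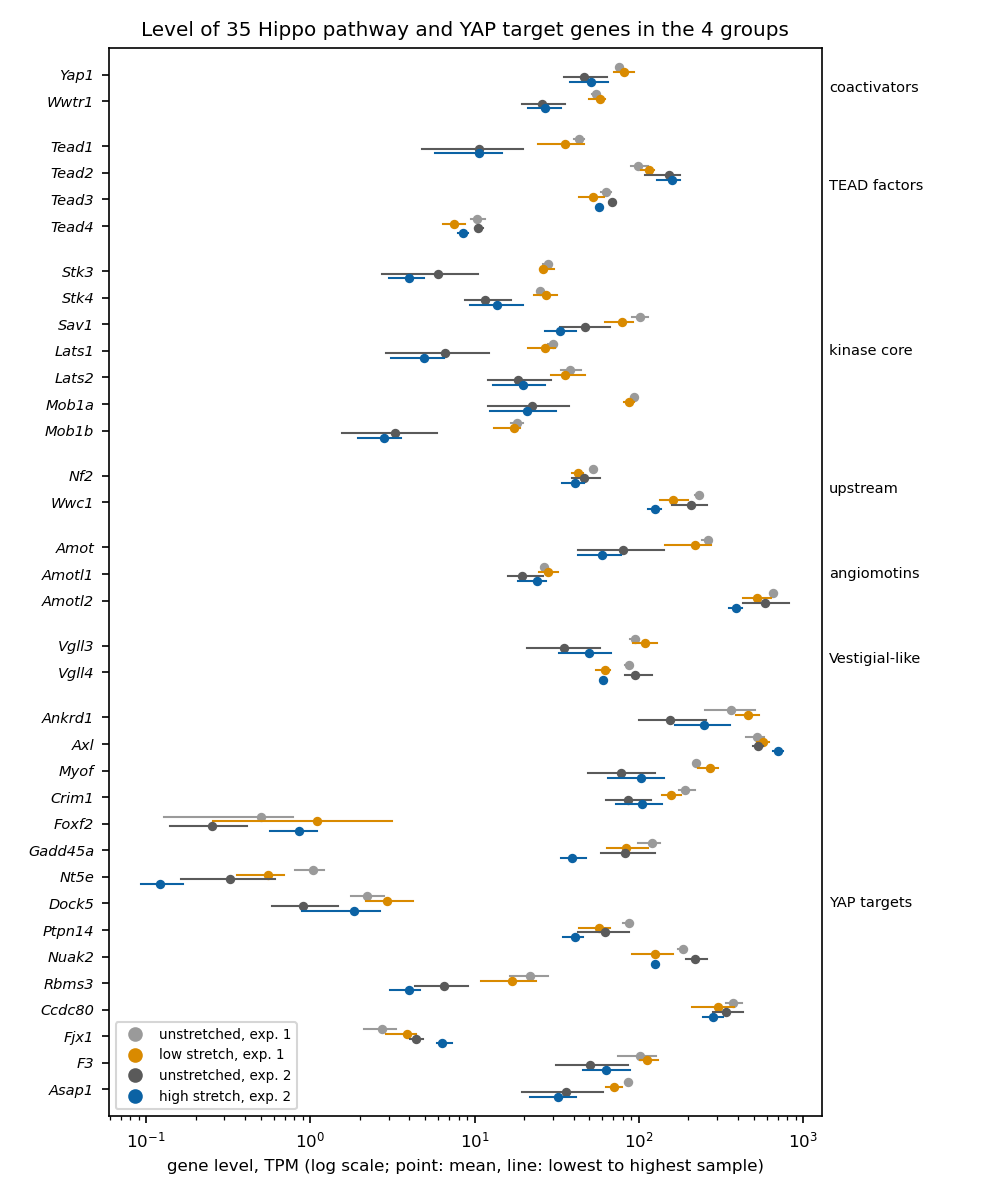
Gene level in TPM on a log axis (x) for the 35 members by role (y) in the 4 groups, as the mean with a line from the lowest to the highest sample. All kinase core points of experiment 2 lie to the left of those of experiment 1, and Amotl2 is the highest member in unstretched cells of both.

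Other genes of the pathway were counted from a list of 64, of which 60 were tested under low and 59 under high stretch. Under low stretch 2 rose and 4 fell (10%, beside 5.45% of all genes), and under high stretch 1 rose and 2 fell (5.08%, beside 3.47%). With the run term 8 passed as higher and 14 as lower under low stretch (36.7%, beside 28.2%), and 2 and 6 under high stretch (13.6%, beside 8.35%). The median log2 fold change without that term was 0.04 and -0.07. Taok3, a kinase that can activate MST and LATS, rose in both, from 23.3 to 37.1 CPM under low stretch (log2 0.65, SE 0.10, adjusted p = 0.00754, edgeR) and from 24.5 to 42.5 CPM under high stretch (log2 0.79, SE 0.17, adjusted p = 0.0464). Crb2, an apical polarity protein of the podocyte slit diaphragm, fell in both, from 1.86 to 0.393 CPM (log2 -2.27, SE 0.46, adjusted p = 0.0211, edgeR) and from 3.02 to 0.549 CPM (log2 -2.46, SE 0.31, adjusted p = 0.00877). Fat2, an atypical cadherin, and Llgl2, a polarity protein, fell under low stretch with log2 fold changes of -2.12 and -0.84 (adjusted p = 0.00371 and 0.00741, edgeR). Dchs2, another atypical cadherin, fell under high stretch (-3.25, adjusted p = 0.00774, edgeR), at 1.25 CPM or less.

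A list of 55 further genes often used as YAP readouts also split. Under low stretch 4 rose and 3 fell (12.7%, beside 5.45% of all genes), and under high stretch 6 rose and 3 fell (16.4%, beside 3.47%), with a median log2 fold change of 0.02 and 0.10. With the run term 17 passed as higher and 13 as lower under low stretch (54.5%, beside 28.2%), and 9 and 5 under high stretch (25.5%, beside 8.35%). Dusp1, a phosphatase of MAP kinases, rose in both, from 49.9 to 164 CPM (log2 1.68, SE 0.27, adjusted p = 0.00914, edgeR) and from 110.1 to 285 CPM (log2 1.37, SE 0.29, adjusted p = 0.0456). Col4a3, a basement membrane collagen chain, rose in both from 0.226 and 0.0679 CPM (log2 1.00 and 2.88, adjusted p = 0.0495 and 0.0124, edgeR). Gas6, the ligand of Axl, fell in both (log2 -1.22, adjusted p = 0.00358, and -1.32, adjusted p = 0.0409, edgeR), as did Sh2d4a (log2 -1.35 and -1.79), from 0.404 and 0.453 CPM. Under high stretch Ccn2 rose from 359 to 1564 CPM (log2 2.12, SE 0.27, adjusted p = 0.00877, edgeR) and Tnnt2, a troponin, from 5.5 to 43.9 CPM (log2 2.99, SE 0.44, adjusted p = 0.014). Under low stretch Fstl1 rose (log2 0.48, adjusted p = 0.0135, edgeR).

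No change in the members' transcript shares was detected. Of 71 transcripts from 28 members tested under low stretch and 66 from 25 members under high stretch, none passed limma's test of usage. Among all transcripts 0.0144% of 27720 passed under low and 0% of 23408 under high stretch. At an unadjusted p under 0.05 there were 9 of 71 member transcripts (12.7%, beside 10% of all) and 5 of 66 (7.58%, beside 8.04%). The largest change in mean share under low stretch was that of Dock5-203, a retained-intron transcript, from 5.16 ± 8.94% to 14.4 ± 4.5% of the gene's TPM (SD, n = 3 and 6; adjusted p = 0.422, limma). Under high stretch the protein-coding Mob1b-202 went from 39 ± 6.5% to 30.2 ± 1.12% (SD, n = 3 each; adjusted p = 0.585, limma), and Amotl2-201 from 51.1 ± 3.02% to 42.8 ± 3.08% (adjusted p = 0.547, limma). Mob1b-202 was also lower under low stretch, at 50.4 ± 2.21% against 54.6 ± 0.333% (adjusted p = 0.412, limma).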

How the data were processed

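Poly(A) RNA of 15 samples was sequenced as stranded paired-end libraries, per the labels' protocols. The authors deposited raw counts per gene and TPM per transcript. The submitters' processing notes name STAR 2.7.5c, featureCounts, Subread 2.0.0, Salmon 1.9.0, DESeq2 1.38.3 and build mm39; strand setting and read-pair counting are not given in the sources used here. Symbols came from GENCODE M21 (52083 of 55416 genes; genes without one held 0.132 to 0.231% of counts), so no coordinates of counted genes are printed.

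Each stretched group was fitted with its own unstretched samples in edgeR 4.0.16 (R 4.3.3): TMM, filterByExpr, quasi-likelihood F test, Benjamini-Hochberg adjustment over all genes tested. SE is the log2 fold change over the square root of F. Intervals are 95%, from edgeR's total degrees of freedom (residual plus prior). CPM shown use TMM over all 15 samples. Usage was tested with limma 3.58.1 on log2 ratios of transcript TPM to the gene's other transcripts (pseudocount 0.1 TPM, gene mean of at least 1 TPM, fraction 0.05 to 0.95); a TPM of 0 can be a failed estimate. Tests were tried on simulated data with larger changes than most seen here and no run effect. That trial does not cover small changes, and it left out the high-stretch fit with a run term.

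All 36 members are named. Some podocyte markers are not reported here. Per-sample values are given for those that passed a stretch fit, with or without the run term, or did not overlap in both experiments; other genes are named if they passed in both fits or had 1 of the 3 lowest p. Members, lists and tests were chosen with earlier results of these data known. Alternatives were RLE, DESeq2 1.42.0, no filter, a mean count of at least 100, blocks, all 15 samples and leaving out each sample.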

Additional observations from a re-analysis of the deposited data

Results flagged for a closer look

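Foxf2 in low-stretch replicate 1 of experiment 1 stood at 3.678 CPM, far above the other 5 low-stretch samples, of which the next highest had 1.485 CPM. The gap was 0.651 of the group's range, above Dixon's 95% critical value for 6 samples, and chance alone gives such a gap in about 1 in 20 groups. The other 34 tested members had no such sample. The run that held this sample had a log2 difference of 0.99 for Foxf2, beside 1.10 and 1.29 in the other runs.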

How the results depend on the processing

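Counts of calls moved with the fit and with the samples left out. Under low stretch, where 1 member passed as higher, 3 as lower and 1181 of all genes passed, DESeq2 gave 2, 6 and 2702, a replicate block 0, 1 and 490, a plate run block 11, 13 and 6106, and all 15 samples in one fit 0, 0 and 640. Leaving out 1 sample gave 0 to 2 higher, 0 to 4 lower and 220 to 1630 genes. Under high stretch (1, 0 and 643), DESeq2 gave 1, 3 and 1315, no filter on low counts 1, 1 and 1050, a mean count of at least 100 gave 414 genes, a replicate block, here identical to the plate run block, 3, 2 and 1546, and all 15 samples 0, 5 and 1488. Leaving out 1 sample gave 0 to 6, 0 to 2 and 14 to 1421. For the difference between effects a plate run block called 3 genes, no member. For the unstretched samples, leaving out 1 gave 4 to 9 members higher and 10 to 21 lower. Usage calls among all transcripts under low stretch were 1 and 75 with pseudocounts of 0.01 and 1 TPM, 89 with no filter, 0 with a replicate block, 37 with a plate run block and 1 to 8 with 1 sample left out. Under high stretch they were 3 with a pseudocount of 1 TPM, 9 with no filter and 0 to 10 with 1 sample left out. The cause of these shifts was not tested.

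Replicate numbers shared across groups showed no steady pairing (mean correlation of same-numbered samples -0.071, from -0.44 to 0.365, in experiment 1 and 0.175, from -0.163 to 0.449, in experiment 2), so the replicate block is only an alternative. Under low stretch it used the 3 low-stretch samples that share a number and called Nuak2 alone; under high stretch it called Ankrd1, Dock5, Foxf2, Gadd45a and Nt5e.

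The signs that turned under low stretch did so close to 0. Under high stretch several values swung widely across 0 when 1 sample was left out. Under low stretch Stk3 was -0.0272 with a replicate block, and Lats2, -0.00 in the main fit, was 0.0047 with RLE, 0.0091 with DESeq2, 0.0032 with no filter, 0.0954 with a replicate block and 0.006 with all 15 samples. Asap1 under high stretch was -0.0014 with all 15 samples, the difference for Foxf2 was -0.0306 with a replicate block, Amotl1 between unstretched samples -0.0683 at a mean count of at least 100, and Dock5-203 usage under high stretch -0.0874 with a pseudocount of 1 TPM. With 1 sample left out, log2 values crossed 0 under low stretch for Stk3 (-0.0048 to 0.0689), Lats2 (-0.0896 to 0.1054), Mob1a (-0.0052 to 0.0421) and Mob1b (-0.0686 to 0.0371). Under high stretch they did so for Tead1 (-0.1572 to 0.5549), Stk3 (-0.634 to 0.0342), Lats1 (-0.4982 to 0.3047), Lats2 (-0.0491 to 0.5311), Mob1a (-0.1948 to 0.5694), Mob1b (-0.5605 to 0.3287), Nf2 (-0.0851 to 0.0193), Amot (-0.4381 to 0.2532), Asap1 (-0.1891 to 0.3985) and Dock5-203 (-0.1769 to 1.2307). For the difference they were Myof (-0.1088 to 0.4531) and Ptpn14 (-0.0984 to 0.3071), and between unstretched samples Amotl1 (-0.0607 to 0.1296), Foxf2 (-0.947 to 0.0242), Gadd45a (-0.2807 to 0.052) and Ptpn14 (-0.344 to 0.0491). RLE moved the median of all genes by at most 0.03 on the log2 scale.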
